A study of Leucoraja erinaceus with 6 samples.

Results

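Tbx2 subfamily genes encode T-box transcription factors, proteins that bind DNA through a conserved domain called the T-box. They were followed in bulk RNA-seq of dorsal root ganglia (DRG), which house the cell bodies of somatosensory neurons with their glia, and of the spinal cord they project to. Every row of the count table named tbx2, tbx3, tbx4 or tbx5, with or without the suffix a or b, was taken, which gave 3 genes (tbx2b, tbx3a and tbx4) of 22087 named genes. The subfamily was picked because tbx2b is much higher in DRG, so the differences between the tissues in these 3 genes are given as a description, without a test. All 3 passed the filter on low counts, which left 16112 genes tested.

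The tissues came from untreated wild-type embryos of the little skate (Leucoraja erinacea), a cartilaginous fish, at stage 32. DRG and spinal cord had 3 libraries each, and each library was a pool of tissue from 3 to 4 embryos, so the SD given for a tissue reflects differences between pools rather than between single embryos. Replicates 1, 2 and 3 carried pool numbers 815, 816 and 818 in both tissues. Libraries held 26472152 to 27093555 counts in DRG against 24693555 to 29080300 counts in spinal cord.

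In vertebrates, Tbx2 and Tbx3 act mainly as repressors of transcription, and Tbx4 and Tbx5 mainly as activators. Tbx4 is best known from the hind limb or pelvic fin and from the lung, and Tbx2 and Tbx3 from the heart, the limb and sense organs. Among sense organs, Tbx2 sets the identity of inner hair cells in the mouse ear, and tbx2b is needed for ultraviolet cones in the zebrafish retina. In vertebrate genomes Tbx2 usually lies next to Tbx4, and Tbx3 next to Tbx5.

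The libraries carried the markers of their labelled tissues. Of 14 sensory neuron markers with a row, 12 were tested and 11 were higher in DRG, with summed levels of 3440 to 4071 CPM (counts scaled to library size with TMM factors) in DRG and 681 to 798 CPM in spinal cord. Of 15 spinal cord markers, 14 were tested and all 14 were lower in DRG, with sums of 5.03 to 8.45 CPM in DRG against 696 to 757 CPM in spinal cord. Across all genes, 27.8% were called higher in DRG and 28.1% lower with edgeR's quasi-likelihood test (adjusted p under 0.05), so a call in this comparison was common. The 13 mitochondrial protein-coding genes took 24.3% to 35.7% of counts in DRG against 5.39% to 6.88% in spinal cord, which makes the choice of scaling matter for every fold change.

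The repressor gene tbx2b had 102, 91.9 and 105 CPM in DRG replicates 1, 2 and 3, and 2.70, 2.96 and 2.97 CPM in spinal cord replicates 1, 2 and 3. Levels were even within each tissue, and the lowest DRG library lay far above the highest spinal cord library. The means were 99.6 ± 6.80 CPM in DRG against 2.88 ± 0.154 CPM in spinal cord (mean ± SD, n = 3 each). For DRG relative to spinal cord, this is a log2 fold change of 5.11. In reads, this was 1792, 1567 and 2313 counts in DRG against 106, 100 and 116 counts in spinal cord. The gene was therefore measured well above the floor of 3 counts in both tissues, and its transcript was present in spinal cord libraries at a low level.

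The second repressor gene, tbx3a, had 104, 89.5 and 115 CPM in DRG replicates 1, 2 and 3, against 0.534, 1.48 and 1.15 CPM in spinal cord replicates 1, 2 and 3. Its DRG libraries lay close together, while its spinal cord libraries rested on 21, 50 and 45 counts and spread more widely. The means were 103 ± 12.9 CPM in DRG against 1.06 ± 0.480 CPM in spinal cord (mean ± SD, n = 3 each), with a log2 fold change of 6.61.

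The limb-field gene tbx4 had 9.32, 17.1 and 10.4 CPM in DRG replicates 1, 2 and 3, against 0.102, 0.503 and 0.435 CPM in spinal cord replicates 1, 2 and 3. DRG replicate 2 stood above the other two DRG libraries, and spinal cord replicate 1 held only 4 counts. The means were 12.2 ± 4.20 CPM in DRG against 0.347 ± 0.215 CPM in spinal cord (mean ± SD, n = 3 each), with a log2 fold change of 5.14. In bulk tissue, fewer cells that express a gene and less RNA per cell cannot be told apart.

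**Figure D1:**
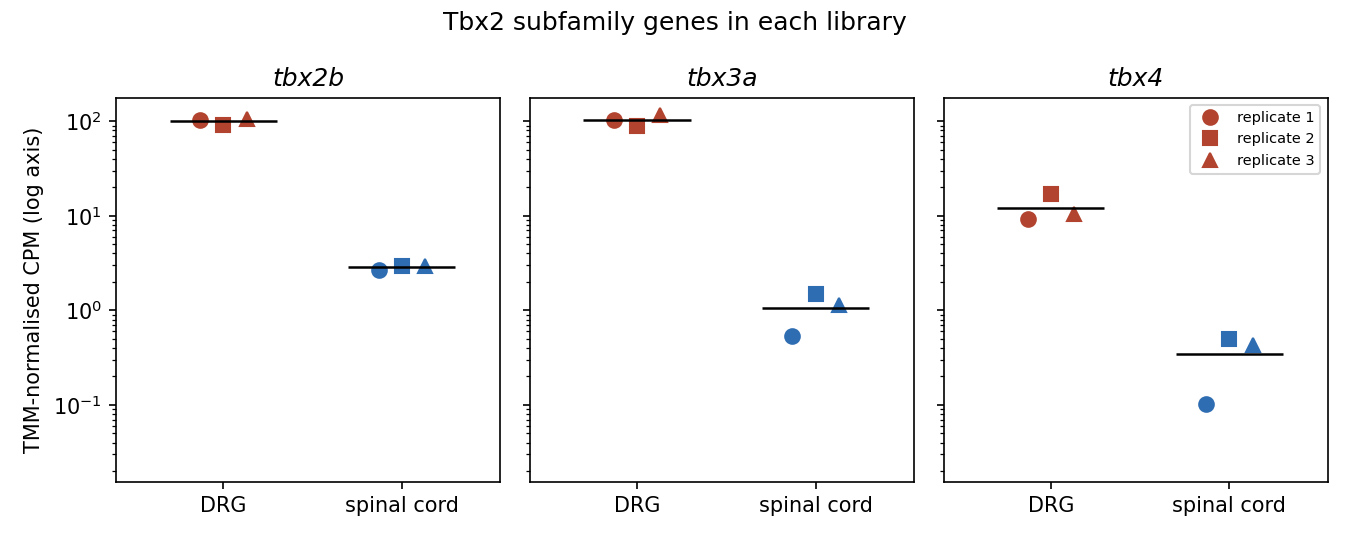
TMM-normalised CPM (log axis) of tbx2b, tbx3a and tbx4 in each library, DRG on the left of each panel and spinal cord on the right; symbols mark replicates and lines the means. All DRG points lie above all spinal cord points in each panel, and tbx4 spreads most within a tissue.

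For all 3 genes, every DRG library lay above every spinal cord library, as it did for 30.8% of all genes tested; the genes were chosen by this contrast, so nothing is read from that count. Ranked by log2 fold change toward DRG, tbx3a was at place 48, tbx4 at place 113 and tbx2b at place 114 of 16112 genes. The spread within a tissue set the genes apart. The coefficient of variation of tbx2b was 6.82% in DRG and 5.36% in spinal cord, that of tbx3a was 12.5% and 45.5%, and that of tbx4 was 34.3% and 62.0%. The spinal cord values rest on 100 to 116 counts for tbx2b, 21 to 50 for tbx3a and 4 to 17 for tbx4. Counting error therefore adds more to the spread of tbx3a and tbx4 there. Compared pool by pool, the ratio of DRG to spinal cord was 38.0, 31.0 and 35.2 for tbx2b in pools 815, 816 and 818. For tbx3a it was 195, 60.4 and 100.0, and for tbx4 it was 91.6, 33.9 and 23.8. The ratio was highest in pool 815 for each gene, and that pool holds the spinal cord library with the fewest tbx3a and tbx4 counts.

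When counts were scaled by library size only, the median over all genes lay at -0.99 on the log2 scale, and at -0.04 with TMM. The log2 fold changes of tbx2b, tbx3a and tbx4 were then 4.16, 5.67 and 4.16. Set against that median they were 5.15, 6.66 and 5.15, and the same figures with TMM were 5.15, 6.65 and 5.17. A change of scaling shifts all genes by nearly the same amount, so taking off the median makes these figures agree by construction. Their agreement does not show which scaling is right.

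The balance between the 3 genes was described by ratios of counts within a library, which no scaling touches. There were 1.02, 0.974 and 1.10 counts of tbx3a for each count of tbx2b in DRG replicates 1, 2 and 3, and 0.198, 0.50 and 0.388 in spinal cord replicates 1, 2 and 3. The ranges did not overlap, which restates the larger log2 fold change of tbx3a (6.61 against 5.11 for tbx2b) and is no separate result. The spinal cord ratios rest on 21, 50 and 45 counts of tbx3a. For tbx4 over tbx2b the ratios were 0.0910, 0.186 and 0.0990 in DRG against 0.0377, 0.170 and 0.147 in spinal cord, with overlapping ranges. These ratios show how the balance shifts between libraries; they do not compare transcript levels of different genes, since they are not per length.

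To see whether other T-box genes shared this pattern, the 9 further T-box genes found by symbol among the rows were followed. A T-box gene with only a LOC name would be missed. Of the 3 that were tested, 0 were called higher in DRG and 1 was called lower. That gene was mgaa, whose protein pairs a T-box with a domain that binds Max, at 12.5, 15.1 and 16.5 CPM in DRG against 28.5, 30.1 and 31.3 CPM in spinal cord replicates 1, 2 and 3 (log2 fold change -1.03 ± 0.15 SE, edgeR adjusted p = 0.000725). For tbr1a, known from forebrain neurons, the levels were 2.80, 2.46 and 5.69 CPM in DRG against 2.77, 3.26 and 3.00 CPM in spinal cord, so the tissues overlapped (adjusted p = 0.554). For tbx18, a gene of mesenchyme around vessels and heart, DRG replicate 2 stood alone. It had 0.629, 2.70 and 0.497 CPM in DRG against 1.45, 1.66 and 1.66 CPM in spinal cord (log2 fold change -0.33 ± 0.65 SE, edgeR adjusted p = 0.69). Without DRG replicate 2, tbx18 was called lower in DRG (log2 fold change -1.50, edgeR adjusted p = 0.0263). With no filter on low counts, 1 of the 9 further T-box genes was called higher in DRG, so the lack of higher calls depends on the filter.

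The remaining 6 T-box genes (tbx1, tbx15, tbx20, tbx21, eomesb and tbxtb) were too low to test, with at most 11 counts in any library. The gene tbx1, known from the pharynx, had 4, 9 and 8 counts in DRG against 0, 0 and 2 counts in spinal cord. For tbx20, a gene of heart and of motor neurons, the counts were 0, 0 and 0 in DRG against 3, 11 and 1 in spinal cord. For tbxtb, the notochord gene brachyury, no DRG library held a count, and the spinal cord libraries held 0, 1 and 1. At this depth, 3 counts, the floor set here, corresponded to 0.136 to 0.176 CPM in DRG against 0.0764 to 0.0888 CPM in spinal cord. Levels below that rest on too few counts to be compared.

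Among the T-box genes found by symbol, the 3 Tbx2 subfamily genes held 92.9%, 90.3% and 90.8% of counts in DRG replicates 1, 2 and 3. In spinal cord replicates 1, 2 and 3 they held 9.21%, 12.2% and 11.2%. The 95% Wilson intervals ran from 89.3% to 93.7% over the DRG libraries and from 7.82% to 14.1% over the spinal cord libraries, and cover counting error only. The subfamily was chosen by the contrast between the tissues, so these shares are given as a description, without a test. In spinal cord most T-box counts belonged to mgaa.

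**Figure D2:**
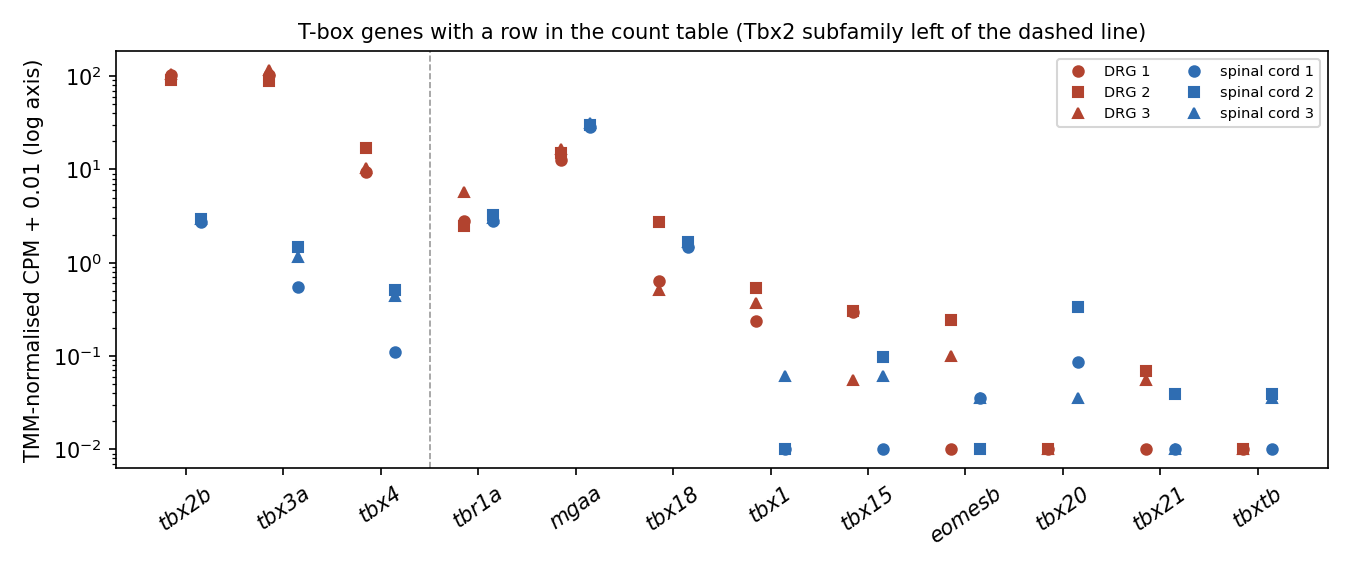
TMM-normalised CPM plus 0.01 (log axis) of the 12 T-box genes, with DRG libraries in red left of spinal cord libraries in blue; symbols mark replicates and points at 0.01 are counts of 0. The 3 genes left of the dashed line are high in DRG, mgaa is higher in spinal cord, and 6 genes stay below 1 CPM in every library.

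In the RefSeq gene table of the assembly Leri_hhj_1, tbx4 and tbx2b are direct neighbours on chromosome 28, and tbx3a lies on chromosome 25. The genes up to 3 places away on each side were followed to see how far the DRG pattern reached along the chromosome. These were 12 genes apart from the subfamily itself, of which 8 were tested. In DRG, 4 of the 8 were called higher and 1 was called lower, where 27.8% of all genes were called higher and 28.1% lower. Next to the subfamily genes themselves stood 4 of the 12, and all 4 were called higher in DRG.

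All 3 tested long non-coding RNA (lncRNA) genes among the neighbours were higher in DRG, where 18.3% of the 694 lncRNA genes tested across the table were called higher. LOC129709317, directly beside tbx3a, had 14.2, 17.8 and 15.9 CPM in DRG against 0.0509, 0.0592 and 0.179 CPM in spinal cord replicates 1, 2 and 3. Its spinal cord libraries held only 2, 2 and 7 counts. The log2 fold change was 7.29 ± 0.43 SE (edgeR adjusted p = 9.03e-06), and 8.06 without spinal cord replicate 3. On the other side of tbx3a, LOC129709319 had 1.26, 1.06 and 3.07 CPM in DRG against 0, 0.118 and 0.0768 CPM in spinal cord (log2 fold change 4.74 ± 0.90 SE, edgeR adjusted p = 0.00268). DRG replicate 3 was the highest of these, and the fold change was 4.08 without it and 5.39 without spinal cord replicate 2.

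Directly beside tbx2b, LOC129710590 had 12.2, 15.4 and 7.86 CPM in DRG against 0.764, 0.622 and 0.410 CPM in spinal cord replicates 1, 2 and 3. The groups did not overlap, and DRG replicate 2 was highest, unlike for tbx2b itself (log2 fold change 4.30 ± 0.38 SE, edgeR adjusted p = 6.23e-05). There were 0.119, 0.168 and 0.0752 counts of LOC129710590 per count of tbx2b in DRG and 0.283, 0.210 and 0.138 in spinal cord. This RNA thus did not keep a fixed ratio to its neighbour, though the spinal cord ratios rest on 30, 21 and 16 of its counts. For LOC129709317 per count of tbx3a the ratios were 0.137, 0.199 and 0.138 in DRG. In spinal cord they were 0.0952, 0.04 and 0.156, on 2, 2 and 7 counts. The ranges of the tissues overlapped for both RNAs. The strand setting of the counting is not given in the sources used here, so reads of these RNAs cannot be told apart from reads that overlap from the gene beside them. A further lncRNA gene, LOC129710591, was too low to test, at 4, 17 and 23 counts in DRG against 1, 1 and 4 in spinal cord. LOC129709316 was also too low, with 25, 3 and 1 counts in DRG against 6, 0 and 0 in spinal cord.

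Of 5 tested protein-coding neighbours, 1 was called higher in DRG and 1 lower. On the far side of tbx4, the DNA helicase gene brip1 had 16.6, 12.0 and 15.7 CPM in DRG against 5.24, 4.88 and 5.48 CPM in spinal cord (log2 fold change 1.51 ± 0.20 SE, edgeR adjusted p = 0.000445). Its call was lost with library sizes alone (0.56, edgeR adjusted p = 0.0751). For med13a, a gene of the Mediator kinase module, the levels were 20.9, 19.1 and 24.1 CPM in DRG against 42.4, 45.0 and 42.4 CPM in spinal cord (log2 fold change -1.02 ± 0.14 SE, edgeR adjusted p = 0.00045). No difference was detectable for ints2 (0.06 ± 0.15 SE, edgeR adjusted p = 0.768), bcas3 (0.22 ± 0.14 SE, edgeR adjusted p = 0.217) or rbm19 (-0.37 ± 0.19 SE, edgeR adjusted p = 0.136). With library sizes alone, ints2, bcas3 and rbm19 were called lower in DRG, at log2 fold changes of -0.88, -0.73 and -1.30. LOC129709320, a protein-coding gene beyond LOC129709319, had 0, 0 and 2 counts in DRG against 0 counts in each spinal cord library.

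**Figure D3:**
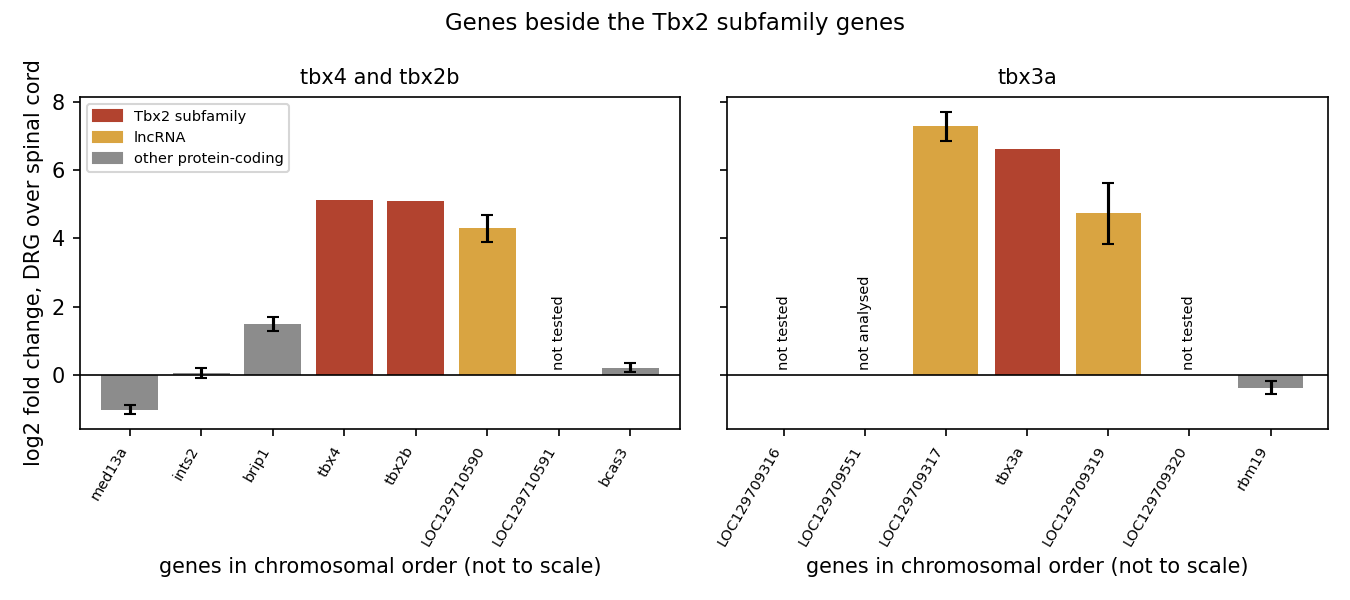
Log2 fold change, DRG over spinal cord, for genes around tbx4 and tbx2b (left) and tbx3a (right), in chromosomal order and not to scale; error bars are standard errors, and subfamily genes carry none. The tested lncRNA genes beside tbx2b and tbx3a rise to 4.30 or more, while ints2, bcas3 and rbm19 lie between -0.37 and 0.22.

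Bone morphogenetic protein (BMP) signalling induces Tbx2 and Tbx3 in the vertebrate heart and limb. Of 17 tested genes of this pathway, 5 were called higher in DRG (29.4%, against 27.8% of all genes) and 3 lower, with a median log2 fold change of 0.18 against -0.04 over all genes. The ligand gene bmp4 had 19.9, 16.7 and 19.2 CPM in DRG against 6.29, 7.08 and 6.68 CPM in spinal cord (log2 fold change 1.48 ± 0.17 SE, edgeR adjusted p = 0.000193). The ligand gene bmp6 (1.75) and the receptor gene bmpr1ba (1.59) were also higher in DRG. In the opposite direction, the ligand gene bmp2a had 0.172, 0.117 and 0.0452 CPM in DRG against 1.68, 1.92 and 2.28 CPM in spinal cord (log2 fold change -4.13). Its DRG libraries held only 3, 2 and 1 counts, so the size of this change is poorly measured. The gene smad4b, the shared signal carrier, was lower by a log2 fold change of -0.59. The remaining lower gene was chrd, with 0 counts in each DRG library. Of the same list, id1 (-0.32), id2a (0.18), id4 (0.51, edgeR adjusted p = 0.0508), smad6b (-0.15) and smad7 (0.30) were not called. With library sizes alone, 0 of the 17 genes were called higher and 11 lower, and no other scaling removed more than 1 of the 5 higher calls.

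Genes reported as targets of TBX2 or TBX3 in mammals went both ways. Of 9 tested, 2 were called higher in DRG (22.2%, against 27.8% of all genes) and 4 lower, against 28.1% of all genes. Their median log2 fold change was -0.43. The cell cycle inhibitor gene cdkn1a, repressed by both factors in mammalian cells, had 19.4, 9.44 and 11.1 CPM in DRG against 4.38, 3.91 and 4.40 CPM in spinal cord, with no overlap (log2 fold change 1.65 ± 0.30 SE, edgeR adjusted p = 0.00206). The related inhibitor gene cdkn1cb was higher in DRG by 1.01, and the related cdkn1bb was lower (log2 fold change -0.92 ± 0.22 SE, edgeR adjusted p = 0.00825). The call of cdkn1cb was lost with library sizes that leave out mitochondrial genes (0.49, edgeR adjusted p = 0.105). The gap junction gene gja1b, repressed by both factors in the mouse heart, had 31.2, 30.6 and 26.0 CPM in DRG against 203, 249 and 243 CPM in spinal cord (log2 fold change -2.98 ± 0.16 SE, edgeR adjusted p = 5.41e-06). The pacemaker channel gene hcn4 and the proto-oncogene mycn were lower in DRG by -4.17 and -1.26. The DRG level of hcn4 rested on 5, 0 and 0 counts, so the size of its change is poorly measured. With library sizes alone, 0 of the 9 genes were called higher and 6 lower. Whether tbx2b or tbx3a acts on any of these genes in the skate tissues was not tested.

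Of a list of candidate partner and co-repressor genes of Tbx2 subfamily factors, 0 of 10 tested were called higher in DRG and 4 lower, where 28.1% of all genes were lower (median log2 fold change -0.60). The chromatin gene baz2ba had 16.5, 15.2 and 20.2 CPM in DRG against 50.8, 49.3 and 45.1 CPM in spinal cord (log2 fold change -1.48 ± 0.15 SE, edgeR adjusted p = 0.000113). The co-repressor gene tle3a (-0.83) and the zinc finger gene sall4 (-3.11) were lower as well. The deacetylase genes differed. No difference was detectable for hdac1 at 73.7, 85.0 and 62.6 CPM in DRG against 80.7, 80.0 and 76.0 CPM in spinal cord (edgeR adjusted p = 0.596). In contrast, hdac3 was called lower in DRG (log2 fold change -0.72 ± 0.24 SE, edgeR adjusted p = 0.0307). The heart partner gene nkx2.5 had 0 counts in all 6 libraries.

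Limb and fin field genes, among which Tbx4 acts, did not share its direction. Of 7 tested, 0 were called higher in DRG and 5 lower, where 27.8% of all genes were higher and 28.1% lower. Their median log2 fold change was -3.11. The largest changes were those of shha (-6.95), the ligand of the limb's posterior margin and of the floor plate, and of sall1a (-6.49). Both genes are also active in the spinal cord. Of the other lower genes, en1a is also on the spinal cord marker list and sall4 on the partner list. The count is therefore not separate from those lists. In DRG, shha had only 1, 0 and 0 counts, so the size of its change is poorly measured. The growth factor gene fgf10a, a target of Tbx4 and Tbx5 in limb buds, had 1.6, 0.293 and 0.316 CPM in DRG against 0.331, 0.266 and 0.333 CPM in spinal cord, with overlapping groups (edgeR adjusted p = 0.195). Of the remaining limb genes, pitx1 was counted only in DRG replicate 1, at 0.286 CPM.

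Markers of other cell types were followed in the same libraries, since T-box genes are also expressed in mesenchyme. Of 8 tested connective tissue genes, 7 were called higher in DRG and 1 lower, with sums of 1547 to 3731 CPM in DRG against 147 to 183 CPM in spinal cord. Of 9 peripheral glia genes, 4 were higher and 4 lower, with sums of 7914 to 14275 CPM in DRG against 37992 to 46105 CPM in spinal cord. The spinal cord sum was nearly all mpz and mbpa, at means of 31499 and 8028 CPM, so it does not measure the list as a whole. These 2 genes, sox10 and plp1a were lower in DRG, while s100b, egr2b, foxd3 and pmp22b were higher. In spinal cord sox10 and plp1a were abundant as well, at means of 326 and 190 CPM. The list therefore cannot be read as marking peripheral glia alone in this contrast, and which cells carry these genes was not tested. Blood genes (3 of 4 higher, 1 lower) summed to 72.1 to 149 CPM in DRG against 19.3 to 21.2 CPM in spinal cord. The calls of ptprc (higher) and spi1b (lower) among them were lost with the replicate block (edgeR adjusted p = 0.058 and 0.0866), and also with 2 in place of 3 spinal cord libraries, whichever was dropped, while those of rhag and lmo2 were kept. Muscle genes (1 of 2 tested higher) summed to 12.8 to 41.6 CPM in DRG against 8.50 to 13.0 CPM in spinal cord, where the muscle determination gene myod1 was at 0. The 1 muscle call, neb, did not hold with 2 spinal cord libraries, whichever was dropped, nor under either library-size scalings. Cartilage genes (2 of 7 higher, 3 lower) summed to 61.3 to 117 CPM in DRG against 98.2 to 107 CPM in spinal cord. The spinal cord sum was mostly that of the 3 lower genes, sox9a, sox6 and sox5, at means of 52.3, 17.2 and 13.6 CPM. The 2 higher genes were col2a1a (69.8 CPM in DRG against 13.8 CPM) and col9a1b (8.69 against 1.11 CPM). Endothelial genes (1 of 7 higher, 2 lower) summed to 42.6 to 71.3 CPM in DRG against 103 to 132 CPM in spinal cord. The largest part of the spinal cord sum was cldn5a, at a mean of 64.3 CPM, while kdr was the 1 gene higher in DRG. Pigment cell genes (1 of 5 higher, 2 lower) summed to 4.97 to 7.39 CPM in DRG against 59.0 to 92.5 CPM in spinal cord. Most of the spinal cord sum was kita, at a mean of 64.4 CPM. The calls of tie1 (endothelium, lower) and oca2 (pigment cell, higher) did not hold with 2 spinal cord libraries either. What part these cells have in the levels of the T-box genes was not tested.

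The DRG libraries differed in these markers, and the subfamily genes did not vary alike across them. Relative to the mean of the 3 DRG libraries, tbx2b stood at 1.03, 0.922 and 1.05 and tbx3a at 1.01, 0.869 and 1.12 in replicates 1, 2 and 3. The summed sensory neuron markers stood at 1.05, 0.894 and 1.06. For tbx4 the values were 0.761, 1.39 and 0.845. Replicate 2 was also the highest DRG library for the sums of peripheral glia (0.828, 1.40 and 0.775), connective tissue (0.983, 1.43 and 0.591), muscle (0.803, 1.68 and 0.516), blood (1.10, 1.28 and 0.622), cartilage (1.14, 1.22 and 0.639) and pigment cell markers (0.929, 1.24 and 0.833). Of the other lists, the endothelial sum was highest in replicate 1. The blood sum peaked in replicate 2 through ptprc (11.7, 66.96 and 13.5 CPM in DRG replicates 1, 2 and 3). The genes rhag (77.3, 45.9 and 35.3 CPM) and lmo2 (37.6, 35.3 and 23.1 CPM) were highest in replicate 1, and spi1b in replicate 2. Most of the muscle sum was neb (13.1, 31.5 and 8.41 CPM) and most of the connective tissue sum col1a2 (2017, 3054 and 1178 CPM). The other tested genes of both lists were also highest in replicate 2, some by little, such as osr1 (2.06, 2.58 and 2.17 CPM). The glia sum is carried by a few abundant genes; sox10 was nearly even, at 42.1, 45.2 and 43.2 CPM in the 3 DRG libraries, and egr2b had 7.66, 12.2 and 12.2 CPM. Replicate 2 was the lowest DRG library for tbx2b, tbx3a and the sensory neuron sum. That sum is carried mostly by sncga, at 2685, 2358 and 2434 CPM in the 3 DRG libraries. Single sensory neuron markers went both ways. The gene ret was lowest in replicate 2 (442, 267 and 533 CPM), runx3 was highest there (17.3, 39.8 and 24.3 CPM), and pou4f3 was lowest in replicate 1. With 3 libraries this is a description and was not tested. Leaving out DRG replicate 2 gave log2 fold changes of 5.16 for tbx2b, 6.70 for tbx3a and 4.81 for tbx4.

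**Figure D4:**
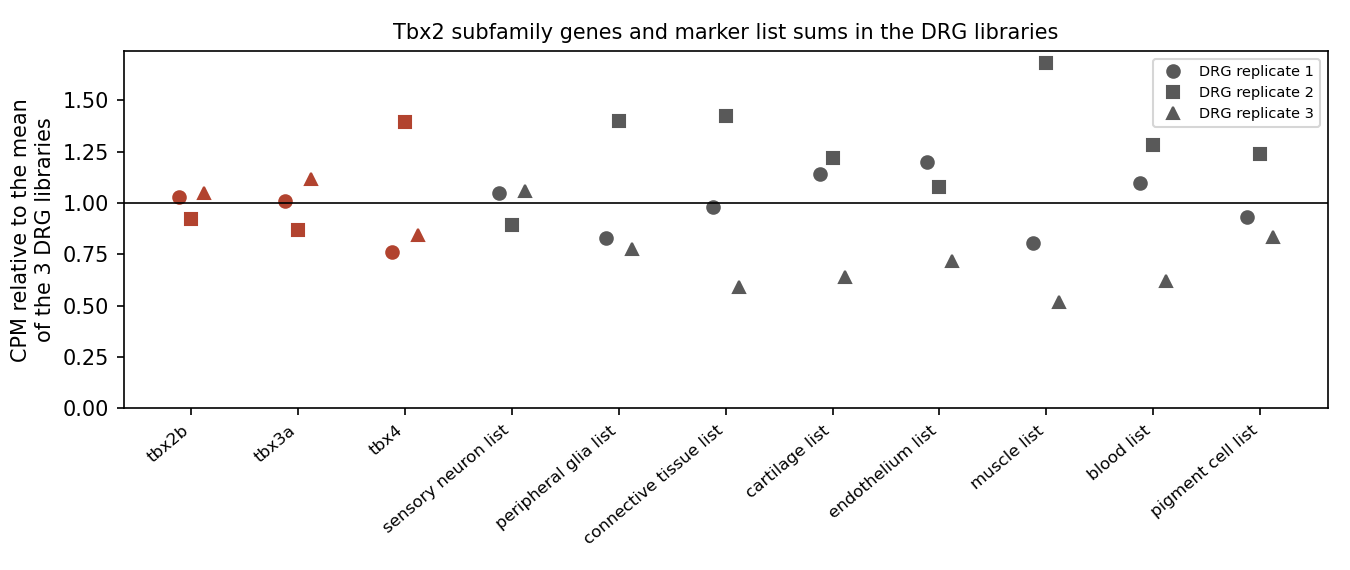
CPM of tbx2b, tbx3a and tbx4 (red) and of 8 summed marker lists (grey) in each DRG library, relative to the mean of the 3 DRG libraries (line at 1). Replicate 2 (squares) lies below the line for tbx2b, tbx3a and the sensory neuron list, and above it for tbx4 and the other lists.

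Genes were ranked by how closely their pattern over the 6 libraries matched that of tbx2b. The measure was the root mean square difference of log2 CPM after centring each gene on its own mean. Genes with only a LOC name were left out of those given here. Of the genes with a symbol, the nearest was pou4f3, a POU homeobox gene of sensory neurons and hair cells, at a difference of 0.13. It had 31.6, 33.4 and 36.1 CPM in DRG replicates 1, 2 and 3, against 1.07, 0.918 and 0.998 CPM in spinal cord replicates 1, 2 and 3. Next came npr2, the receptor for C-type natriuretic peptide that sensory axons need to branch in the mouse spinal cord, at 0.18. It had 153, 133 and 173 CPM in DRG against 5.06, 5.45 and 6.27 CPM in spinal cord.

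The others were the collagen gene col28a1a (0.23), the PR domain gene prdm14 (0.24), si:ch211-10a23.2 (0.25), the adhesion gene amigo3 (0.27), the neuronal ubiquitin hydrolase gene uchl1 (0.28) and the lipid flippase gene atp8a2 (0.28). The spinal cord libraries held no prdm14 counts, so that gene was at least 32.7-fold higher in DRG, with the floor set at 3 counts in each spinal cord library. Its place among the 8 depends on the prior count of 2 used for log2 CPM, since with a prior count of 0.5 it is not among them. By the same measure, with LOC names included, tbx4 was at place 82 and tbx3a at place 173 of 16111 genes, at differences of 0.60 and 0.85. Both were thus near the top of the ranking, with other genes closer to tbx2b. The measure mostly reflects the difference between the tissues, by which the subfamily was chosen. For tbx4 it also rests on 4, 17 and 17 counts in spinal cord. The 8 genes were picked for their likeness over the same libraries, so no test is given.

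**Figure D5:**
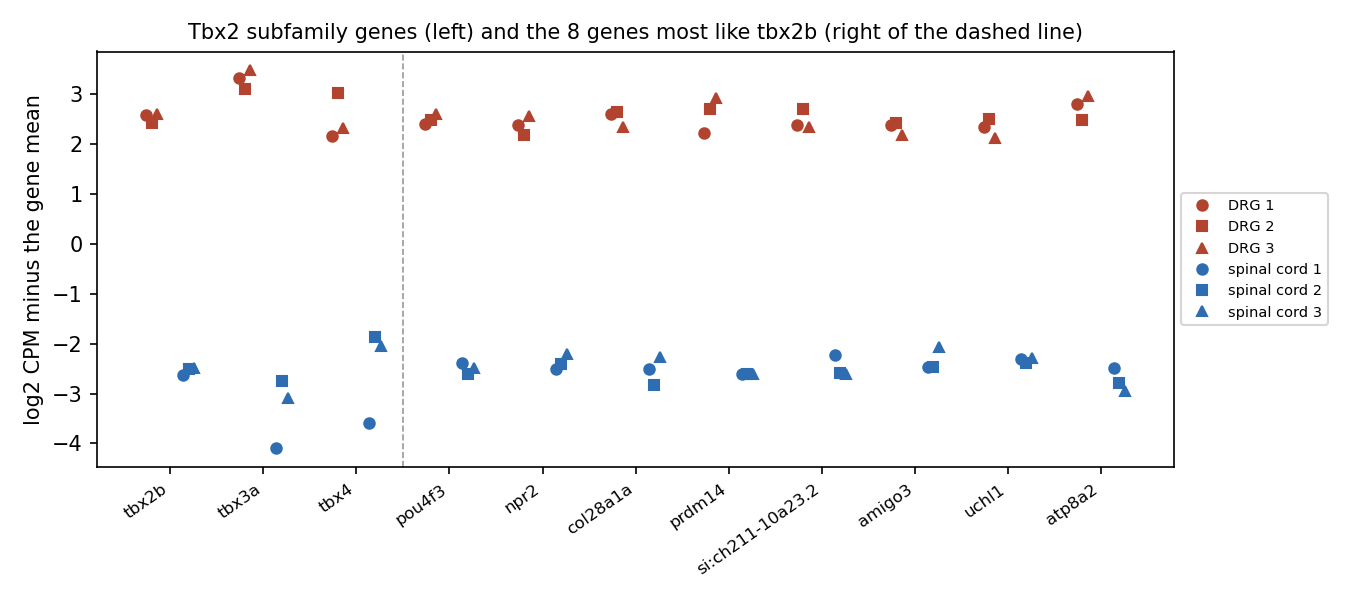
Log2 CPM minus the gene's own mean for the 3 subfamily genes and, right of the dashed line, the 8 genes most like tbx2b, LOC names left out. DRG libraries are red and spinal cord libraries blue, and symbols mark replicates. The 8 genes lie at differences of 0.13 to 0.28 from tbx2b, while tbx3a has a larger difference between tissues and tbx4 a wider spread; the place of prdm14, with 0 counts in spinal cord, depends on the prior count.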

How the data were processed

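The table the authors deposited holds raw counts for 6 libraries, made from stranded polyA-selected libraries with paired-end reads, per the labels' protocols. The submitters' processing notes name Trimmomatic, HISAT2 2.2.0, SAMtools, featureCounts and edgeR 4.4. The genome build and strand setting are not given in the sources used here. Of 22111 row names, 21518 matched the RefSeq gene table of Leri_hhj_1, which was used for names and gene order only.

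Here, 24 rows that name no gene (1.02% to 2.04% of counts) were left out. Genes passed filterByExpr, and the tissues were compared with edgeR 4.0.16 in R 4.3.3 (TMM; glmQLFit and glmQLFTest with a term for tissue; p adjusted by Benjamini-Hochberg over all genes, threshold 0.05). The standard error (SE) is the log2 fold change divided by the square root of F. The test was also run on simulated data in which few genes changed, equally in both directions. That run does not bear on the choice of scaling. Replicate pairs differed beyond counting noise (chi-square per gene of at least 20.4).

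The subfamily and the gene lists were chosen with earlier results of these data known. Named genes are the subfamily, the other T-box genes found by symbol, neighbours and the 8 genes with a symbol most like tbx2b (prior count 2). Per list and direction, at most 3 called genes were added, those with the largest change whose mean reached 1 CPM in either tissue. Other list genes named were chosen after their values were seen.

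The labels give the pool number as a batch, which pairs the libraries. The correlation of deviations from the tissue mean within a pool was 0.48, -0.24 and -0.18 for pools 815, 816 and 818. Each batch holds 1 library per tissue, which leaves no test inside a single batch; the fit with the replicate block uses all 3 pools.

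Alternatives were other scaling factors, DESeq2 1.42.0, limma 3.58.1 voom, other filters, the replicate block and leaving out each library. Figures were drawn with matplotlib 3.10.9.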

Additional observations from a re-analysis of the deposited data

How the results depend on the processing

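The calls over all genes numbered 9002 and stayed within 1.5 times of that under each alternative; genes higher in DRG numbered 4473, 1692 with library sizes alone and 2749 with library sizes that leave out mitochondrial genes. Those scalings moved the median of all genes to -0.99 and -0.55. With library sizes alone tbx2b, tbx3a and tbx4 had log2 fold changes of 4.16, 5.67 and 4.16, and without mitochondrial genes tbx2b had 4.60. The direction of the 3 genes was the same under each alternative run; tbx4 has no value with at least 10 counts in every library. Leaving out 1 library gave 5.06 to 5.16 for tbx2b, 6.29 to 6.92 for tbx3a and 4.69 to 5.48 for tbx4. Neighbours higher in DRG numbered 4, and 2 with at least 10 counts in every library, since fewer genes are then tested; neighbours lower numbered 1, and 4 and 3 with the library-size scalings. Under the library-size scalings, in the same order, signs turned for tbr1a (-0.61 and -0.21), ints2 (-0.88 and -0.45) and bcas3 (-0.73 and -0.29); ints2 was -0.024 with at least 10 counts. Leaving out 1 library gave -1.50 to 0.051 for tbx18, -0.20 to 0.50 for tbr1a and -0.069 to 0.15 for ints2. The cause was not tested. Calls among list genes numbered 79, and 58 to 84 over all alternatives. Counts for single lists moved by over 1.5 times in 16 cases for genes higher in DRG and in 27 for genes lower, and not in 194 and 183; with library sizes alone, 7 sensory neuron genes were higher and 8 partner genes lower. With at least 10 counts, 2 spinal cord markers were called. With the replicate block, the log2 fold changes were 5.11, 6.66 and 5.23 for tbx2b, tbx3a and tbx4, and 76 list genes were called. Among the 65 named genes followed, the block ended the calls of tie1, ptprc and spi1b, and of no other (edgeR adjusted p = 0.0602, 0.058 and 0.0866). These are marker genes of endothelium and blood. Of the 8 genes most like tbx2b, 7 were shared with a prior count of 0.5 and 2 with Pearson's correlation. Of 65 named genes followed, 49 kept call and direction under all alternatives. Taking 1 neighbour on each side gave 4 genes, all called higher in DRG. Depth limits the spinal cord level of tbx4, which rests on 4 to 17 counts.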
